A study of Mus musculus with 2 samples.

Results

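Haemoglobin-rich terminal erythroblasts are the last nucleated stages of the red cell lineage and the young red cells that follow them. They were taken here as droplet barcodes in which globin transcripts made up a large part of the RNA. Unique molecular identifiers (UMIs) count captured RNA molecules, and barcodes were kept from 200 detected genes upward when mitochondrial genes held no more than 15% of their UMIs. Members were chosen by their measured globin RNA: a member had at least 10% of its UMIs in genes whose symbol starts with Hba- or Hbb-, and at most 3 UMIs of Cd79a and Cd79b, the signalling chains of the B cell receptor. By this rule 918 of 15842 kept barcodes were members, from 17057 barcodes in all, with 853 in the Mg nail library and 65 in the Mg-TAGelMA nail library. The limit on Cd79a and Cd79b removed 33 barcodes from the Mg library and 2 from the other.

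The study collected cells from the femoral marrow of mice with an osteoporotic fracture, together with cells stuck to the implant, a nail placed in the marrow cavity. The Mg nail group carried a magnesium nail. The Mg-TAGelMA nail group carried a nail named Mg-TAGelMA, GelMA being the light-curable gel gelatin methacryloyl. The meaning of TA is not spelled out. All mice thus had the fracture and a nail, and the strain, sex and age, the way bone loss was produced, the number of mice and any pooling are not given in the sources used here. Each group was 1 library made with the Chromium Single Cell 3' v3 kit. With 1 library per group there was no test of the nails. Intervals are exact, at the 95% level, and cover counting error only.

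During terminal differentiation an erythroblast divides a few times, fills with haemoglobin, condenses and expels its nucleus, and then clears its mitochondria and ribosomes as a reticulocyte. Haemoglobin joins alpha and beta chains, each around a haem group, and adult mice make the alpha chains from Hba-a1 and Hba-a2 and the beta chains from Hbb-bs and Hbb-bt. The transcription factors GATA1 and KLF1 bind GATA and CACCC motifs at many erythroid promoters.

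The upstream sequences of an alpha-globin gene, a beta-globin gene and Alas2, the first enzyme of haem synthesis, are shown because the RNA of these genes defines or marks the cells. Hba-a1 (chr11:32283511-32284465) and Hba-a2 (chr11:32296489-32297298) lie on the plus strand of chromosome 11. Hbb-bs (chr7:103826534-103828096) and Hbb-bt (chr7:103812524-103813996) lie on the minus strand of chromosome 7, and Alas2 (chrX:150547375-150570638) on the plus strand of the X chromosome (GENCODE vM21, GRCm38). The windows were read from RefSeq promoters (GRCm38.p6), 5' to 3' on the gene's strand, up to 250 bases before the start and without annotated exons. Capitals mark GATAA and CACCC on either strand, so that TTATC is GATAA on the other strand. The Hba-a2 window is chr11:32296242-32296488 (plus strand, 247 bases), the Hbb-bt window chr7:103813997-103814173 (minus strand, 177 bases) and the Alas2 window chrX:150547167-150547374 (plus strand, 208 bases).
Hba-a2: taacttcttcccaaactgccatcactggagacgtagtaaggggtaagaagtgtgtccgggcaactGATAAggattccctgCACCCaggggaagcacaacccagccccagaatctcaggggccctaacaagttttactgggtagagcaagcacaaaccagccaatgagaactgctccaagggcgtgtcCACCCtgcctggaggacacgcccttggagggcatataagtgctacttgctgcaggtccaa
Hbb-bt: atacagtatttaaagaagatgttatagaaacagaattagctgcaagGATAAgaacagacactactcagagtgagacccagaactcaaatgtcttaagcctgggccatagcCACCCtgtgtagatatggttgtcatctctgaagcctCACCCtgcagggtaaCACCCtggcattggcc
Alas2: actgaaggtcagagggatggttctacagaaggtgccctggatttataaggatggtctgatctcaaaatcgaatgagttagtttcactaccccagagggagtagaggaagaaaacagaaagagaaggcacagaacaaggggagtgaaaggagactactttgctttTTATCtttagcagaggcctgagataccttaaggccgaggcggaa
The Hba-a2 window held 1 GATAA and 2 CACCC matches, the Hbb-bt window 1 and 3, and the Alas2 window 1 and 0. The windows of Hba-a1 (89 bases) and Hbb-bs (82 bases), cut shorter by annotated exons and not shown, held 1 and 1 and 1 and 0. The cuts took away the bases nearest the RefSeq start, which were not searched. A count of 0 thus holds for the kept bases and not for the whole promoter. Among 32851 promoter windows of 250 bases, 22.6% held GATAA, 52.0% held CACCC and 10.1% held both. Those windows were not cut at exons, so these shares and the counts above are not on the same footing. Before any cut, the RefSeq windows of Hba-a1 and Hba-a2 were identical over the 247 bases they share. A match is a description of the letters and not a bound site.

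The deposited libraries held 58261391 UMIs in 9466 barcodes (Mg) and 79890998 UMIs in 7591 barcodes (Mg-TAGelMA), with a median of 3844 and 6977 UMIs per kept barcode. They were counted with different Cell Ranger versions, 5.0.0 and 7.0.1, so the nail and the counting cannot be told apart. The libraries shared 21 barcode sequences, 2 of them members in the Mg library and none a member in the other. Scrublet called 197 kept Mg barcodes and 297 kept Mg-TAGelMA barcodes as doublets, of which 22 and 0 were members. These members were kept, as the rule has it.

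The members carried the markers of the label outside the globins that chose them. Slc4a1, the band 3 anion exchanger of the red cell membrane (chr11:102348824-102366203), was detected in 90.04% of Mg members and 81.5% of Mg-TAGelMA members. Alas2 was detected in 93.3% and 93.8%. With each barcode thinned to 500 UMIs, Slc4a1 was seen in 55.2% of Mg members against 0.703% of the 7115 Mg barcodes with under 1% globin UMIs, and in 41.5% against 0.298% of 7391 in the Mg-TAGelMA library. Thinned Alas2 was seen in 43.0% against 0.351% and in 58.5% against 0.0812%. At least 2 UMIs of 14 erythroid genes other than globins were present in 845 of 853 Mg members (99.1%) and 63 of 65 Mg-TAGelMA members (96.9%). The label of erythroid cells held for both libraries, but these markers do not show how late the members were. Many members still carried division genes, as described below. Mki67 was detected in 66.4% of Mg members and 56.9% of Mg-TAGelMA members, and Top2a in 53.0% and 43.1%.

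Members made up 10.3% of kept Mg barcodes (853 of 8319, Clopper-Pearson interval 9.61 to 10.9) and 0.864% of kept Mg-TAGelMA barcodes (65 of 7523, 0.667 to 1.10). The share was 11.9-fold higher in the Mg library (interval 9.22 to 15.5). Across 9 other settings of the barcode filters and of the rule this fold ran from 9.66 to 14.3. Whether and how red cells were removed before loading is not given in the sources used here, and its part in the share was not tested.

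**Figure D1:**
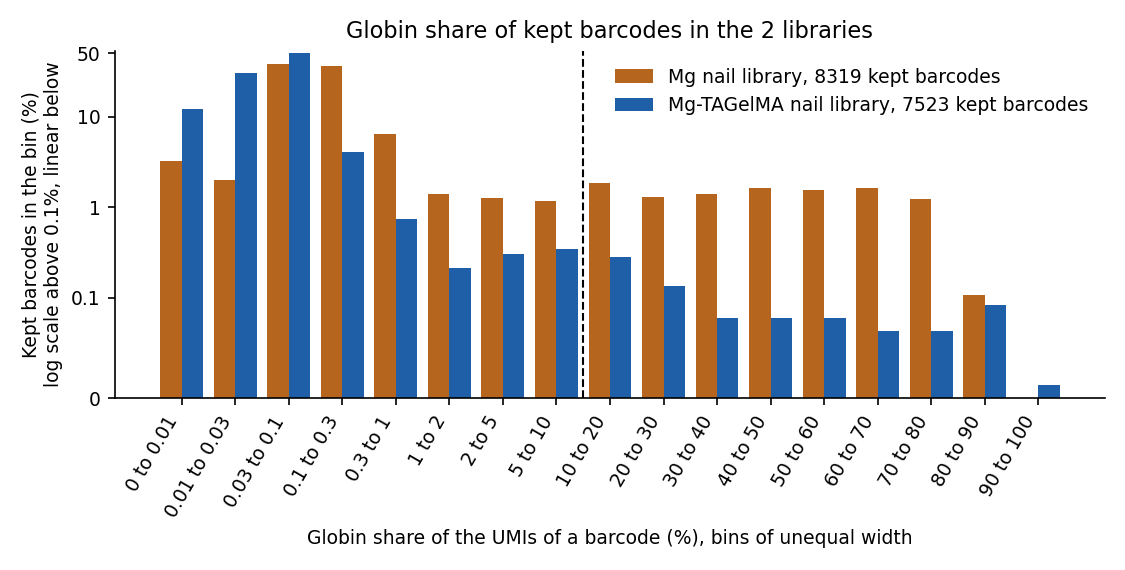
Percent of kept barcodes (y axis, log scale above 0.1% and linear below) by globin share of their UMIs (x axis, bins of unequal width) in the Mg library (brown, 8319 barcodes) and the Mg-TAGelMA library (blue, 7523). Right of the dashed line, at 10% or more, the Mg library has 152 barcodes in the first bin and 9 between 80 and 90%, where the Mg-TAGelMA library has 21 and 7.

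Barcodes lay on both sides of the 10% threshold without a gap. In the Mg library 34 kept barcodes had 8 to 10% globin UMIs and 25 members had 10 to 12%, with medians of 20590.5 and 14569 UMIs. In the Mg-TAGelMA library the counts were 8 and 3. All of these barcodes, inside and outside, had at least 2 UMIs of other erythroid genes, so the members are a range of globin share and not a closed cell type. Outside the members the median globin share was 0.103% in the Mg library and 0.0338% in the other, and the members held 82.3% and 60.04% of all globin UMIs of their library.

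The globin share of the members ran from 10.1% through a median of 46.4% to 87.5% in the Mg library, and from 10.8% through 34.5% to 90.7% in the Mg-TAGelMA library. Of the Mg members, 186 lay at 10 to 25%, 292 at 25 to 50%, 333 at 50 to 75% and 42 at 75% or more. The Mg-TAGelMA library had 24, 17, 14 and 10 in the same ranges. At least 50% globin UMIs were found in 375 of 853 Mg members (44.0%, 40.6 to 47.4) and in 24 of 65 Mg-TAGelMA members (36.9%, 25.3 to 49.8). These 2 intervals overlap, which does not show that the split was equal. The lowest range held 21.8% of Mg members (19.1 to 24.7) and 36.9% of Mg-TAGelMA members (25.3 to 49.8). The highest range held 4.92% (3.57 to 6.60) and 15.4% (7.63 to 26.5). At both ends the Mg-TAGelMA share was the larger one and the intervals did not overlap. These shares rest on 24 and 10 Mg-TAGelMA members. The intervals cover counting error only and treat barcodes as independent. Without replicate libraries, their separation does not show that the nails differed in the spread of globin share.

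RNA other than globin was lower at a higher globin share in both libraries. From the lowest to the highest range the median of UMIs outside the globins went from 6945 to 806 in Mg members and from 7480.5 to 586 in Mg-TAGelMA members. The median number of detected genes went from 2086 to 384 and from 2220 to 368. UMIs outside the globins are part of the total that sets the globin share, so part of both falls is set by that share. The median of all UMIs, globin UMIs included, went from 8604.5 to 3777 in Mg members and from 8894 to 3655 in Mg-TAGelMA members. The median mitochondrial share went from 2.39% to 0.551% and from 2.99% to 0.439%. It is a share of all UMIs, globin UMIs included, so a higher globin share lowers it by itself. This fall therefore does not measure a loss of mitochondrial RNA relative to other RNA. The libraries thus had similar medians at each end.

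**Figure D2:**
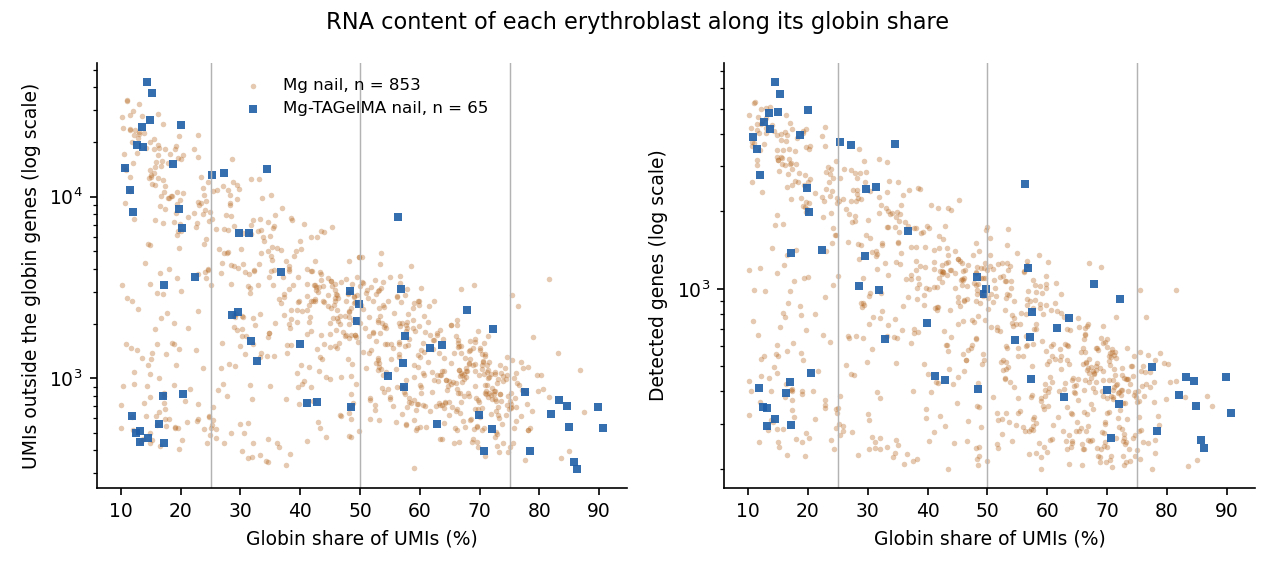
Each point is 1 member, 853 of the Mg library (brown circles) and 65 of the Mg-TAGelMA library (blue squares). The x axis is the globin share of UMIs in percent, the y axes are UMIs outside the globin genes (left) and detected genes (right) on log scales, and grey lines mark 25, 50 and 75%. An upper band slopes down to the right, and a second set of barcodes with few UMIs lies below it at globin shares under 50%.

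The members with 10 to 25% globin UMIs were parted into 2 sets. Split at 500 detected genes, a threshold taken from an alternative setting and applied to the ranges after the scatter had been seen, the Mg library had 44 members below and 142 at or above it, with medians of 728 and 12074 UMIs. The Mg-TAGelMA library had 9 and 15, with medians of 593 and 18603 UMIs. In the Mg library the sets overlapped in depth, with members below the threshold reaching 1490 UMIs and the others starting at 1198. Xpo7, a nuclear exportin that is high late in erythroid maturation, stood at 3458 CPM (UMIs per 1000000 UMIs outside the globin genes) in the shallow Mg members and at 18.3 in the deep ones. In the Mg-TAGelMA library the same levels were 5999.6 and 49.3. In Xpo7 the shallow members of the lowest range were thus nearer to the members at 50 to 75% globin, at 2856 and 6464, than the deep ones were.

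Some other gene lists divided the same barcodes in the same way, but the haem synthesis enzymes did not in the Mg library. These 8 genes summed to 5311 CPM in shallow and 6605 in deep Mg members of the lowest range, against 10656 at 50 to 75%. In the Mg-TAGelMA library the sums were 7161 and 5489, against 10534. The summed level of 24 genes of organelle clearance was 13224 in shallow and 4302 in deep Mg members of the lowest range, and 21289 and 4897 in the Mg-TAGelMA library. Proliferation genes stood at 14579 and 31244 in the Mg library and at 11612 and 22360.3 in the other. The 14 erythroid genes other than globins summed to 19498 and 18729.5 in the Mg library and to 23998 and 14688 in the other, so the shallow members did not lack them. The shallow members held only 1.74% and 1.92% of the UMIs outside the globins in the lowest range, so sums over that range describe its deep members. Their median mitochondrial share was 3.14% against 2.35% in the Mg library and 2.90% against 3.08% in the Mg-TAGelMA library, and their summed level of neutrophil markers was 14401 against 7153 and 35998 against 19214. The part of free RNA and of cell damage in these barcodes was not tested.

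Adult globins made up nearly all globin UMIs of the members. In the Mg library Hbb-bs gave 40.3%, Hba-a1 29.9%, Hba-a2 16.8% and Hbb-bt 12.95% of globin UMIs. In the Mg-TAGelMA library the same genes gave 46.1%, 26.5%, 14.3% and 13.1%. The embryonic genes Hbb-y, Hbb-bh1 and Hba-x gave 3, 0 and 0 UMIs in the 853 Mg members and 0, 0 and 0 in the 65 Mg-TAGelMA members. Globin UMIs chose the members, so these values and the ratios that follow are descriptions.

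Alpha-globin was lower relative to beta-globin in the Mg-TAGelMA members. The ratio of alpha to beta UMIs was 0.878 in the Mg library (0.875 to 0.880) and 0.688 in the Mg-TAGelMA library (0.681 to 0.695), a log2 difference of -0.35. From the lowest to the highest range it was 0.760, 0.856, 0.948 and 0.898 in Mg members and 0.719, 0.663, 0.663 and 0.703 in Mg-TAGelMA members. The Mg-TAGelMA value was the lower one in each of the 4 ranges. The same order held in barcodes under 1% globin, 0.923 against 0.798, where globin UMIs can come from free RNA, so it was not particular to the members. Per member, alpha UMIs made up 24.6% to 85.4% of alpha plus beta in the Mg library, with a median of 47.8%, and 32.2% to 77.2% in the other, with a median of 40.9%. The members of the libraries overlapped widely in this measure.

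The 2 alpha genes and the 2 beta genes shifted against each other along the globin share in both libraries. The ratio of Hba-a2 to Hba-a1 was 0.363, 0.495, 0.667 and 0.794 from the lowest to the highest range in Mg members and 0.293, 0.514, 0.766 and 0.818 in Mg-TAGelMA members. It was 0.282 and 0.284 in barcodes with 5 to 10% globin UMIs. The ratio of Hbb-bt to Hbb-bs went the other way, 0.404, 0.318, 0.297 and 0.275 in the Mg library and 0.417, 0.281, 0.208 and 0.216 in the Mg-TAGelMA library, after 0.508 and 0.453 at 5 to 10%. In sums over all members Hba-a2 thus took a larger and Hbb-bt a smaller part of its pair where globin was higher.

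The shallow members of the lowest range also differed in these ratios. Their Hba-a2 to Hba-a1 ratio was 0.879 against 0.354 in the deep members of the Mg library and 1.14 against 0.279 in the Mg-TAGelMA library. Among members under 500 genes alone the Hba-a2 to Hba-a1 ratio did not rise with the globin share: it was 0.879, 0.782, 0.759 and 0.784 along the Mg ranges and 1.14, 0.951, 0.808 and 0.818 along the Mg-TAGelMA ranges. Among Mg members with at least 500 genes it was 0.354, 0.482, 0.609 and 0.809. The alpha to beta ratio of the shallow members of the lowest range was 1.35 against 0.751 and 1.40 against 0.710. The pair is uncertain as a pair of separate genes. The annotated transcripts of Hba-a1 and Hba-a2 agree in 537 of 538 aligned bases, with the 1 mismatch 123 bases from the end of the alignment and 16 further bases at the 3' end of Hba-a2. Hbb-bs and Hbb-bt agree in 570 of 607. How reads that match both copies were counted is not given in the sources used here, and its part in the ratios was not tested.

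**Figure D3:**
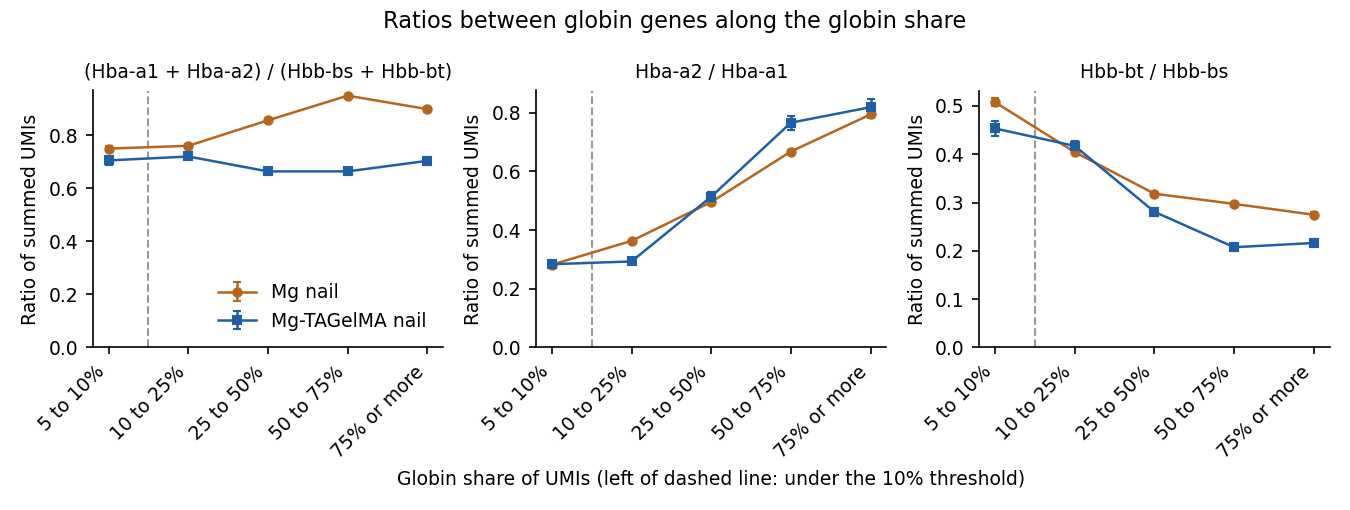
Ratios of summed UMIs (y axes) of alpha to beta globin, Hba-a2 to Hba-a1 and Hbb-bt to Hbb-bs by range of globin share (x axis) in the Mg library (brown circles) and the Mg-TAGelMA library (blue squares), with exact 95% counting intervals, many of them smaller than the symbols. Points left of the dashed line are barcodes with 5 to 10% globin UMIs, and the ratio of Hba-a2 to Hba-a1 goes from 0.363 to 0.794 in Mg members.

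For all other genes, UMIs were summed over members and given as CPM, per 1000000 UMIs outside the globin genes, since the rule acts on globin. Members with at least 50% globin UMIs were set against those with 10 to 25% within each library. A gene met the size rule when the counting interval of its fold lay wholly beyond 2-fold and it reached 50 CPM in the higher set. In the Mg library 209 of 3180 genes were higher (6.57%) and 549 lower (17.3%) at the high globin share. In the Mg-TAGelMA library 180 of 4132 were higher (4.36%) and 97 lower (2.35%). Both libraries called 110 of 2914 genes higher (3.77%) and 87 lower (2.99%), and none was called in opposite directions. The high set of the Mg-TAGelMA library was small, 24 members with 30822 UMIs, of which 1 member gave 25.2%. The median log2 change over all genes was -0.84 in the Mg library and 0.22 in the other.

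Haem synthesis showed its first and last enzymes higher at a high globin share. Alas2 was at 806, 1652, 3414 and 7186 CPM from the lowest to the highest range in Mg members and at 669, 1513, 3232 and 11806 in Mg-TAGelMA members. Its level was higher in each next range in both libraries. The log2 change was 2.21 (interval of the fold 4.30 to 4.97) and 2.85 (5.77 to 9.03). Fech, which inserts the iron into haem, changed by 1.40 (2.43 to 2.86) and 1.92 (2.86 to 4.99). Alas2 and Fech were thus 2 of 8 enzymes called higher in both libraries, against 3.77% of all genes. The other 6 did not meet the size rule in both libraries. Among them Alad, the second enzyme of the path, had log2 values of -0.87 and -1.53. The median of the list was 0.36 and 0.50.

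Of 18 iron and haem transport genes measured in both libraries, 3 were higher and 1 was lower in both, against 3.77% and 2.99% of all genes. Slc25a37 (mitoferrin 1), which carries iron into mitochondria, was at 1941, 3299, 5045 and 3605 CPM along the Mg ranges, with log2 changes of 1.34 and 1.68. Ncoa4, which delivers ferritin for breakdown, changed by 2.51 and 3.23, and the mitochondrial carrier Slc25a39 by 2.41 and 2.52. Tmem14c, needed for the passage of haem precursors through the inner mitochondrial membrane, was the lower one, at 1762, 1033, 209 and 123 CPM in Mg members. In the Mg-TAGelMA library it had 550 UMIs in the low set and 1 in the high set, a log2 change of -5.98 (interval of the fold 0.000401 to 0.0888). Iron genes thus moved in both directions.

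Of 24 genes of the membrane and its skeleton, 3 were higher and none lower in both libraries, against 3.77% and 2.99% of all genes. The 3 were Epb41 (protein 4.1), with log2 changes of 2.16 and 3.005, Epb42 (protein 4.2), with 1.34 and 1.80, and Mpp1, a membrane scaffold protein, with 1.39 and 2.03. Slc4a1 was at 2369, 3363, 4480.1 and 2642 CPM along the Mg ranges and at 1543, 3027, 3751 and 868 in the other library. It stood highest at 50 to 75% and lower again at 75% or more in both, and its log2 changes of 0.87 and 1.06 did not meet the size rule.

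Among 16 genes of red cell metabolism and antioxidant defence, 4 were higher and 1 lower in both libraries, against 3.77% and 2.99% of all genes. Bpgm, which makes the 2,3-bisphosphoglycerate that lowers the oxygen affinity of haemoglobin, was at 55.2, 242, 1644 and 5754 CPM along the Mg ranges and at 100.4, 776, 2234 and 9549 along the Mg-TAGelMA ranges. Its log2 changes of 5.17 (29.0 to 45.3) and 5.17 (23.4 to 56.9) ranked first among genes called higher in both libraries by the smaller of the 2 values. Catalase (Cat) changed by 3.46 and 4.52, glutathione peroxidase 1 (Gpx1) by 1.71 and 1.76, and the ubiquitin and ISG15 conjugating enzyme Ube2l6 by 2.50 and 2.98. Carbonic anhydrase 1 (Car1) was lower, 905, 345, 69.7 and 123 CPM in Mg members, with 403 UMIs in the low and 1 in the high Mg-TAGelMA set.

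Genes of organelle clearance and terminal remodelling, the largest count among the erythroid lists, were higher at a high globin share. Of 20 measured in both libraries, 12 were higher and none lower, against 3.77% of all genes. Their median log2 change was 1.80 in the Mg library and 2.13 in the other. This list, like the others, was chosen with earlier results of these data known, so the count is a description. Xpo7 was at 78.1, 453, 2856 and 4149 CPM along the Mg ranges, a log2 change of 5.25 (31.6 to 45.9). In Mg-TAGelMA members it was at 164, 2514, 6464 and 521, a change of 5.03 (23.3 to 46.7), with 3 UMIs in the 10 members at 75% or more. Members under 500 genes did not show this rise, with Xpo7 at 3458, 3682, 4114 and 4021 CPM along the Mg ranges and 5999.6, 6487, 5326 and 521 along the Mg-TAGelMA ranges, whereas Mg members with at least 500 genes had 18.3, 305, 2232 and 4319. Tent5c, a poly(A) polymerase, changed by 3.81 and 3.85. Ube2o, a ubiquitin ligase that removes ribosomal and unassembled globin proteins, changed by 3.26 and 4.02, with a reversed sign of -0.99 in 1 library after thinning each member to 500 UMIs, and the mitophagy receptor Bnip3l by 2.36 and 2.89. Mkrn1, a ubiquitin ligase, changed by 2.71 and 3.39, and Ubb, a ubiquitin gene, by 1.501 and 2.57.

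Ribosomal protein genes were lower at a high globin share. Of 33, 27 were lower and none higher in both libraries, against 2.99% of all genes, with a median log2 change of -1.75 and -1.92. Their summed level was 92803, 51590.2, 28037 and 30770 CPM along the Mg ranges and 101374, 51327, 21986 and 48090.3 along the Mg-TAGelMA ranges. It was lowest at 50 to 75% in both, and the higher value at 75% or more in the Mg-TAGelMA library rests on 10 members with 5760 UMIs. Rps2, a protein of the small subunit, had the largest change of the list in the Mg library, -2.64, with -3.14 in the other, and Rplp0 changed by -1.93 and -1.92.

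**Figure D4:**
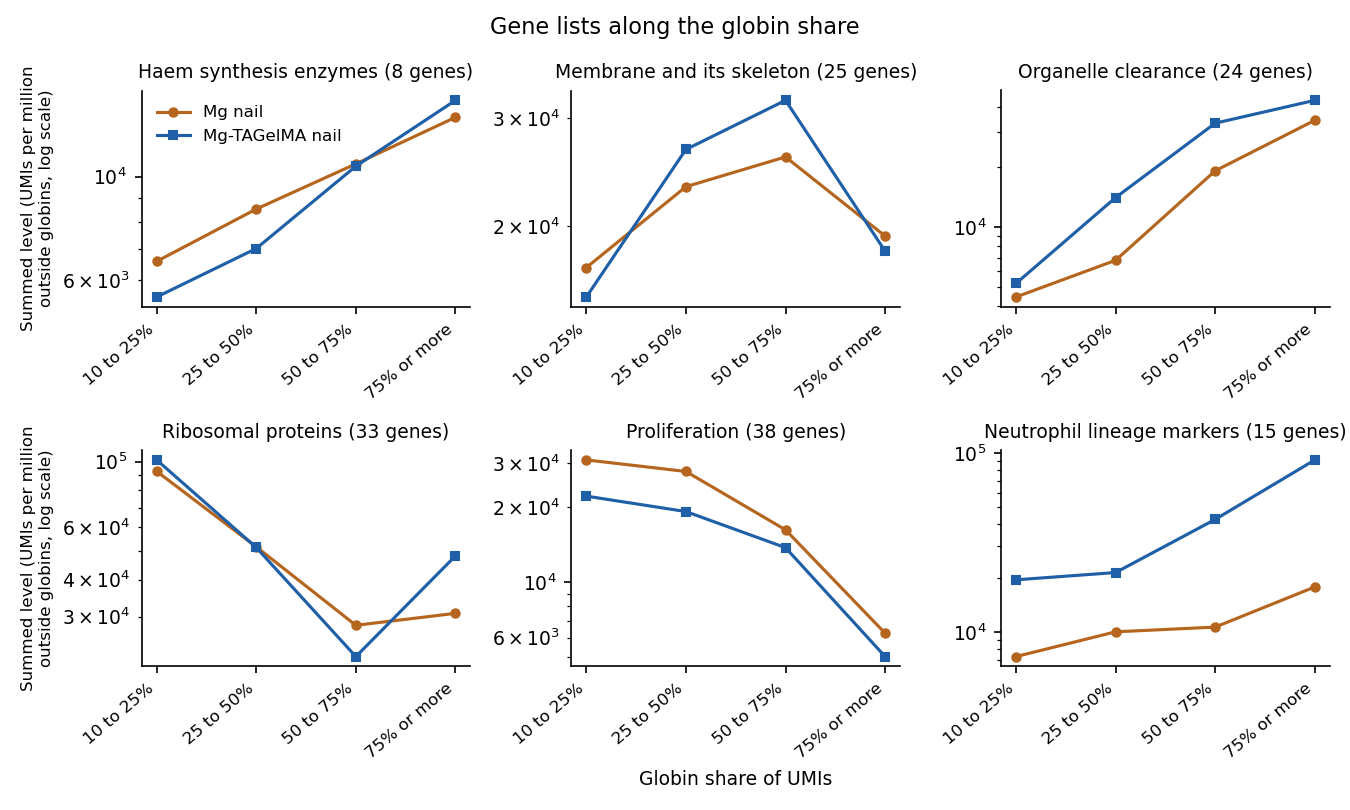
Summed level of 6 gene lists (y axes, CPM, log scales that differ between panels) in 4 ranges of globin share (x axis) in the Mg library (brown circles) and the Mg-TAGelMA library (blue squares). The organelle clearance list goes from 4457 to 34326 in Mg members, while proliferation genes go from 30954 to 6248.

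Part of the proliferation genes was lower at a high globin share. Of 38 proliferation genes, 7 were lower and none higher in both libraries, against 2.99% and 3.77% of all genes. Their median log2 change was -1.20 and -0.61. The 7 were Pcna, Mcm6, Rrm1, Rrm2 and Tyms, which act in DNA replication or nucleotide supply, the tubulin gene Tubb5 and the cyclin gene Ccnd3. Pcna, the sliding clamp of DNA polymerase, was at 1204, 790.2, 159.7 and 272 CPM along the Mg ranges, with changes of -2.83 and -2.71. Rrm2, a subunit of ribonucleotide reductase, changed by -2.30 in the Mg library and had 262 UMIs in the low and 1 in the high Mg-TAGelMA set. Ube2c, which acts with the anaphase-promoting complex, instead had values of 1.14 and 1.48, and was at 1182, 1992, 2791 and 642 CPM along the Mg ranges. It was called higher in the Mg library alone, where 2 genes of the list were higher and 18 lower, against 6.57% and 17.3% of all genes.

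The proliferation antigen gene Mki67 had opposite signs in the libraries, -0.92 in Mg and 0.64 in Mg-TAGelMA members. One Mg-TAGelMA member held 84.7% of its 59 UMIs in the high set, and with the deepest Mg-TAGelMA member of each set left out the value was -1.61. Thinned to 500 UMIs, 66.1%, 55.8%, 20.4% and 2.38% of Mg members had a UMI of it from the lowest to the highest range (83.3%, 79.8%, 50.2% and 26.2% with all UMIs). The barcodes under 1% globin gave 11.9%, and the Mg members at 10 to 75% lay above that level. At 75% or more 1 of 42 members had a UMI (0.0603 to 12.6%). The 500 UMIs include globin UMIs, so fewer other UMIs were left at a higher globin share. Part of the fall along the ranges is therefore set by the globin share. For the same reason the highest range cannot be set against the 11.9%.

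By rank, the genes with the largest rise in both libraries, after leaving out gene models without a name of their own, were Bpgm, Xpo7, Tmcc2, Slfn14, Fam214b, Tcp11l2, Bcl2l1, Tent5c, Sowaha and Tbcel. Bcl2l1, which encodes the survival protein Bcl-xL and is a target of erythropoietin signalling, was at 34.7, 113, 517 and 1111 CPM along the Mg ranges and changed by 4.03 and 4.26. Tmcc2, a membrane protein, changed by 4.63 and 5.05, and Slfn14, an endoribonuclease, by 4.58 and 5.21, the latter from 4 to 17 UMIs. At the other end stood Car1, Mcm6, Atad5, Tmem14c, Pcna, Mcm7, Ccnd3, Slbp, Dek and Rrm2. Slbp, which binds the stem-loop of histone mRNA, changed by -2.85 and -2.47, and Dek, a chromatin protein, by -2.43 and -2.32. These lower genes had 1 to 11 UMIs each in the high Mg-TAGelMA set, so their size there is poorly known. With only members at 75% or more, Mcm6 had 0 UMIs in the high set of the Mg-TAGelMA library and Atad5 in the high sets of both, and with these set to 3 the smaller values were 0.34 and 0.46. After thinning, Mcm6 and Mcm7 had 0 UMIs in the high set behind the smaller value, which was 1.59 and 1.18, and Ccnd3 had a value of 0.01. The kinase gene Pim1, another target of erythropoietin signalling, changed by 1.80 and 2.0, and its smaller value was -0.04 with members at 75% or more and -0.41 after thinning.

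Of 7 interferon response genes measured in both libraries, 3 were higher and none lower at a high globin share, against 3.77% and 2.99% of all genes. Rsad2, which encodes the antiviral enzyme viperin, was at 198, 533, 2143 and 2272 CPM along the Mg ranges and at 70.6, 671, 4229.5 and 3646 along the Mg-TAGelMA ranges, with log2 changes of 3.44 (9.58 to 12.4) and 5.87 (35.9 to 100.08). Its level outside the members was 11.97 and 19.0 CPM. Isg15, a ubiquitin-like protein that Ube2l6 attaches to its targets, changed by 2.83 and 3.53, and its smaller value was -0.07 with members at 75% or more alone. Ifit1, another antiviral gene, changed by 2.97 in the Mg library and had 1 and 3 UMIs in the low and high Mg-TAGelMA sets (interval of the fold 2.10 to 1374). Of the whole list, 7 of 20 genes reached 50 CPM over all members of a library.

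Markers of other cells varied along the globin share as well. The summed level of 15 neutrophil markers was 7279, 10011, 10636 and 17829.8 CPM along the Mg ranges and 19537, 21452, 42495 and 91319 along the Mg-TAGelMA ranges. All 15 had UMIs in the members of both libraries. Of 14 tested, 5 were called higher in the Mg library, 7 in the other and 0 in both. The shares of all genes called higher were 6.57%, 4.36% and 3.77%. Of 6 B lineage genes tested, 1 was called higher in both, against 3.77% of all genes. It was Igkc (immunoglobulin kappa), with changes of 2.03 and 1.76. Neutrophil markers gave a median of 0.854% of the UMIs outside the globins in Mg members and 3.32% in Mg-TAGelMA members, and 7 and 3 members had over 10%. Their part in the changes along the globin share was not tested. Some markers, Ppbp, Gp1bb and Treml1 of megakaryocytes, Kdr and Cdh5 of endothelium and the macrophage gene Cd5l, were at 0 in the members of both libraries. Others were present. The 8 megakaryocyte genes summed to 33.1 CPM in Mg and 71.8 in Mg-TAGelMA members, against 33.9 and 64.2 outside the members. The 12 monocyte and macrophage genes summed to 194 and 314, against 798 and 1660 outside. The 10 stroma and bone genes summed to 46.5 and 29.3, against 149 and 134. The Mg library also had Gm42418, a model that overlaps ribosomal RNA repeats, at 84075, 180454, 285790 and 292364 CPM along the ranges, against 3881 to 17361 in the other. Leaving it, AY036118 and mitochondrial genes out of the scaling adds 0.40 to each log2 change of the Mg library, with 123 genes then higher and 64 lower in both libraries.

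The members were then set against each other to describe how they differed between the 2 libraries. Sums over members weigh deep ones most. Members at 10 to 25% globin gave 1613735 of 3050553 UMIs outside the globins in the Mg library and 268983 of 375789 in the other. A single Mg-TAGelMA member gave 11.4% of the latter total. The levels below thus mostly describe the members with the least globin, in unequal parts. Nail and counting version cannot be told apart in this comparison. Few genes of the erythroid lists met the size rule, and most calls lay elsewhere. Of 3563 genes with at least 50 CPM, 368 were higher in the Mg-TAGelMA members (10.3%) and 34 lower (0.954%), with a median log2 ratio of 0.34 over genes with at least 10 CPM. With TMM factors all ratios shift by -0.29, which gives 254 higher and 59 lower genes, and with DESeq2 size factors by -0.27. With the scaling that leaves out mitochondrial genes, Gm42418 and AY036118 they shift by -0.23, and with all UMIs by 0.15.

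None of the 8 haem synthesis enzymes met the size rule between the libraries, against 10.3% of all genes higher and 0.954% lower. Their median log2 ratio was -0.24. Alas2 was at 1535 CPM in Mg members and 1182 in Mg-TAGelMA members, a log2 ratio of -0.38 (interval of the fold 0.697 to 0.849), and with the 4 ranges of globin share weighted equally its sign turned, to 0.40, as it did after thinning to 500 UMIs, to 0.23. Cpox, the sixth enzyme, was at 1769 CPM in Mg members and 1166 in Mg-TAGelMA members (-0.60, 0.596 to 0.726). Fech, Alad and Urod had log2 ratios of -0.23, -0.09 and -0.24, and Ppox and Uros of 0.10 and 0.08. Of 20 iron and haem transport genes at 50 CPM, 0 were called, against the same shares of all genes. Slc25a37 was at 2839 CPM in Mg members and 1501 in Mg-TAGelMA members (-0.92, 0.485 to 0.576) and the transferrin receptor Tfrc at 2094 CPM in Mg members and 1240.1 in Mg-TAGelMA members (-0.76, 0.538 to 0.651). Both intervals lay below 1, and neither lay wholly beyond 2-fold. Slc25a37 did meet the rule as lower with at least 5% globin UMIs (-1.29), without mitochondrial genes, Gm42418 and AY036118 in the scale (-1.15), with TMM (-1.21) and with DESeq2 factors (-1.19), while it was -0.32 with the ranges weighted equally and -0.34 after thinning. Tfrc was -0.21 after thinning.

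Slc4a1 was at 2991 CPM in Mg members and 1979.8 in Mg-TAGelMA members (-0.60, 0.614 to 0.713). Of 24 membrane genes 1 was called higher, against 10.3% of all genes. It was Epb41, at 676 CPM in Mg members and 1668 in Mg-TAGelMA members (1.30, 2.25 to 2.70). The call of Epb41 was lost with at least 5% globin UMIs (1.003), without mitochondrial genes, Gm42418 and AY036118 in the scale (1.08), with TMM factors (1.01) and with DESeq2 factors (1.03). Its annotated introns span 136 kb in all. None of 14 transcription factor and early genes was called, against 10.3% of all genes higher and 0.954% lower. Hemgn and Klf1 were at 1702 and 379 CPM in the Mg library and 1219 and 367 in the other. Among 21 organelle clearance genes 1 was called higher, against 10.3% of all genes. It was the ubiquitin-conjugating enzyme gene Ube2h, at 178 CPM in Mg members and 695 in Mg-TAGelMA members (1.97, 3.36 to 4.54), with 88.5 kb of intron. None of 33 ribosomal protein genes was called, against 10.3% of all genes higher and 0.954% lower. Their median log2 ratio was 0.31, close to that of all genes.

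Of 38 proliferation genes 2 were lower in Mg-TAGelMA members by the size rule, against 0.954% of all genes. The values of 32 lay below 0, with a median log2 ratio of -0.40 against 0.34 for all genes. Mki67 was at 3536 CPM in Mg members and 1389 in Mg-TAGelMA members (-1.35, 0.359 to 0.429), and with the 4 ranges weighted equally the ratio was -0.93 and no longer met the rule. It was -0.98 with members of at least 20% globin UMIs and -1.05 after thinning, where it did not meet the rule either. Ube2c was at 1662 CPM in Mg members and 695 in Mg-TAGelMA members (-1.26, 0.368 to 0.473). Ube2c has 6.33 kb of intron, and on the scale of short-intron genes alone (8 kb or less) its ratio was -0.98 and did not meet the rule. The same held with all UMIs as the scale (-1.11), with members of at least 20% globin UMIs (-1.03), after thinning (-1.01) and with equal weights (-0.83). Thinned to 500 UMIs, Mki67 was seen in 41.6% of Mg members and 26.2% of Mg-TAGelMA members, and in 11.9% and 4.10% of barcodes under 1% globin, so the same order was present outside the members.

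**Figure D5:**
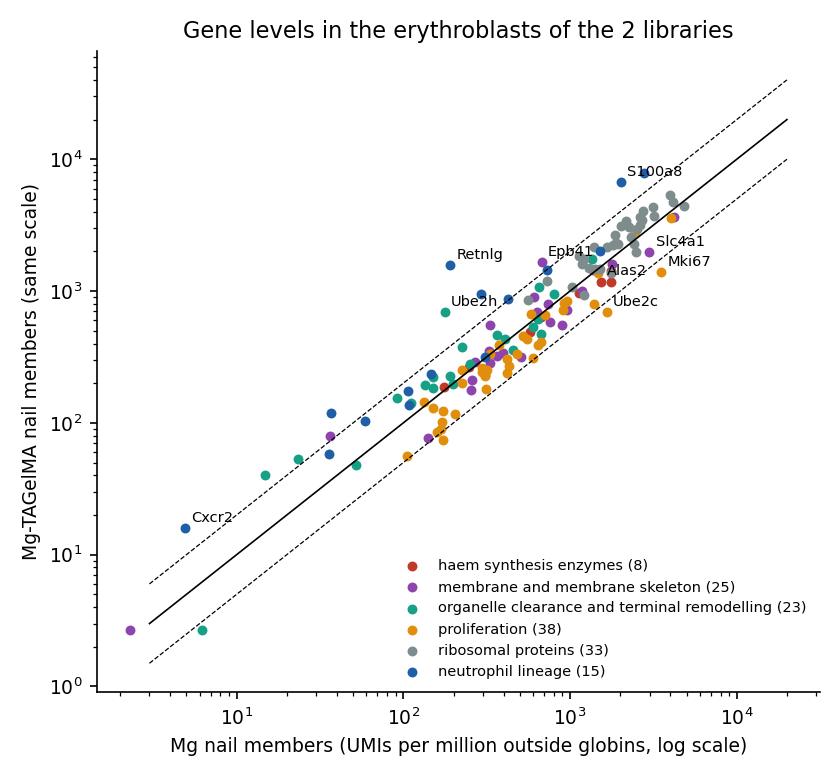
Level of each gene of 6 lists in the members of the Mg library (x axis) and of the Mg-TAGelMA library (y axis), in CPM on log scales, for genes above 0 in both. The solid line marks equal levels and the dashed lines 2-fold differences. Mki67 (3536 and 1389) and Ube2c lie below the lower dashed line and Retnlg (192 and 1567) above the upper one.

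Markers of neutrophils were among the genes called between the libraries. Of 14 tested, 5 were higher in Mg-TAGelMA members, against 10.3% of all genes. Retnlg, a resistin-like protein of mature neutrophils, was at 192 CPM in Mg members and 1567 in Mg-TAGelMA members (3.03, 7.28 to 9.18), and S100a8, a subunit of calprotectin, at 2025 CPM in Mg members and 6685 in Mg-TAGelMA members (1.72, 3.15 to 3.46). S100a9, Lcn2 and Mmp9 had log2 ratios of 1.499, 1.69 and 1.69. The call of Mmp9 was lost without mitochondrial genes, Gm42418 and AY036118 in the scale (1.46), with TMM (1.40) and DESeq2 factors (1.42), after thinning (2.30) and with equal weights (1.95), and the other 4 kept theirs in these settings. All 15 markers of the list were above 0, and their sum was 8761 CPM in Mg members and 22555 in Mg-TAGelMA members. In kept barcodes that were not members it was 63308 and 152562, so the libraries stood in the same order outside the members. Igkc, at 386 CPM in Mg members and 1365 in Mg-TAGelMA members, was likewise at 2599 and 7344 outside them. The part of free RNA in these calls was not tested.

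Metal-handling genes were few and low. Of 6 magnesium transport genes at 50 CPM, 1 was called higher, against 10.3% of all genes, so this count does not set the list apart. It was the magnesium transport mediator Cnnm2, at 37.0 CPM in Mg members and 149 in Mg-TAGelMA members (2.01, 2.87 to 5.59), with 113 kb of intron. Outside the members it stood at 5.65 and 99.3 CPM. Metallothionein 1 (Mt1), a metal-binding protein, was at 16.7 CPM in Mg members and 136 in Mg-TAGelMA members (3.02, 5.397 to 12.2), from 51 UMIs in each library, and 1 Mg-TAGelMA member held 41.2% of them. The early response gene Ier3 had a ratio of 2.95 from 21 and 20 UMIs, and its call was lost in 7 settings, among them TMM factors (2.66). The calls of Cnnm2 and Mt1 were lost after thinning (3.30 and 2.63).

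Genes with long introns had the highest ratios. The 10 genes with the highest ratios, Cmss1, Fgfr2, Camk1d, Arl15, Antxr2, Slc35d2, Mipol1, March3, Immp2l and Lncpint, were all above 8 kb of intron. Cmss1 was at 5.57 CPM in Mg members and 620.0 in Mg-TAGelMA members with 303 kb of intron, and Camk1d at 6.23 CPM in Mg members and 420.4 in Mg-TAGelMA members with 414 kb. Both were higher in the Mg-TAGelMA library outside the members too, Cmss1 at 23.8 and 184 CPM. When the 1378 genes whose introns span 8 kb or less were scaled to their own total, 64 were higher (4.64%) and 24 lower (1.74%). The 10 highest of these were Ankrd61, Prg2, Il1b, Acod1, Ccl6, Mir142hg, Cd14, Retnlg, Mt1 and Ier3. Il1b, the inflammatory cytokine gene, was at 8.85 CPM in Mg members and 122 in Mg-TAGelMA members, with 16.3 and 404 outside the members, and Ccl6, a chemokine gene of myeloid cells, at 16.7 and 186, with 85.6 and 374 outside them. Both thus had the same order of the libraries outside the members. Whether intronic reads were counted in either library is not given in the sources used here, and their part was not tested.

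The 10 genes with the lowest ratios were Lars2 and 9 histone genes. Lars2, a mitochondrial leucyl-tRNA synthetase gene, was at 3197 CPM in Mg members and 247 in Mg-TAGelMA members (-3.69, 0.0624 to 0.0949), and Gm42418 took 14.6% of the UMIs outside the globins in Mg members against 0.547%. The linker histone gene Hist1h1e was at 1935 CPM in Mg members and 205 in Mg-TAGelMA members (-3.24, 0.0835 to 0.133), and the core histone genes Hist1h3c and Hist1h4d had ratios of -3.20 and -2.79. Outside the members Hist1h1e was at 431 and 95.3 and Lars2 at 1833 and 76.6 CPM. The order of the libraries was thus the same there, and no test set the members apart in these genes.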

How the data were processed

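Single-cell RNA sequencing was made from femoral marrow and implant-adherent cells of mice in 2 groups, with 1 library per group. The authors deposited unnormalized UMI counts. Per the file headers they came from Cell Ranger 5.0.0 (Mg) and 7.0.1 (Mg-TAGelMA), with STAR and mm10 per the submitters' processing notes. Whether intronic reads were counted is not given in the sources used here.

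Members were chosen by the rule at the head of the text and not by clustering, and the members and gene lists were chosen with earlier results of these data known. UMI counts were summed over members and divided by the UMIs outside Hba- and Hbb- genes (CPM, per 1000000), so a level is relative to a cell's other RNA. No replicate error can be given: p-values, standard errors and count models were not used, and a gene was called when the exact conditional binomial 95% interval of its ratio lay beyond 2-fold and it had at least 50 CPM in the higher library. Such an interval covers counting error only, and UMIs of 1 member are not independent. Genes with at least 10 CPM entered list medians, and a count of 0 was set to 3 for a log2 value, which is then not a fitted fold. The same rule was used along the globin share, where a list count needs the call in both libraries.

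Named genes were all haem synthesis, globin and marker genes, up to 6 genes of each other list (those called between libraries by size, then the most abundant) and the 10 highest and lowest called genes by rank in each comparison. Some of these genes are not reported here. Others were named after their values were seen: the remaining genes of a list called in both libraries and Gm42418. Rank lists leave out immunoglobulin, T cell receptor, globin, mitochondrial, ribosomal protein, sex-linked marker genes and unnamed gene models. Intron lengths came from GENCODE vM21 for 32235 of 32285 genes. The gene lists hold genes of the pathway from general knowledge. Thinning drew 500 UMIs per barcode, globin UMIs included, without replacement, and no member was shallower. Scripts were tested on simulated data. Tools were Python 3.11.15, numpy 2.4.6, scipy 1.17.1, pandas 2.3.3, scanpy 1.11.5 (scrublet), biopython 1.88, R 4.3.3, edgeR 4.0.16 (TMM factors) and DESeq2 1.42.0 (size factors). Alternatives covered filters, the globin threshold, doublets, scaling, introns, thinning and the thresholds of the size rule.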

Additional observations from a re-analysis of the deposited data

Results flagged for a closer look

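Barcodes that the filters removed held further globin-rich profiles, which no comparison above uses. In the Mg library 60 of 1147 filtered-out barcodes had at least 10% globin UMIs (5.23%, Clopper-Pearson 4.02 to 6.68), 57 of them with under 200 detected genes and 4 with over 15% mitochondrial UMIs (1 had both). In the Mg-TAGelMA library 6 of 68 did (8.82%, 3.31 to 18.2), all with under 200 genes. Their median globin share was 60.8% and 63.2% and their median depth 841 and 686 UMIs. The Mg barcodes had Alas2 at 4879.9, Bpgm at 4463 and Mki67 at 459 CPM. The Mg-TAGelMA barcodes had 10966, 6169 and 0 from 1459 UMIs in all.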

How the results depend on the processing

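No paired analysis was possible because each group had 1 library. Of 81 recomputed main values, 64 kept their direction and size and 17 moved. The log2 difference in the alpha to beta ratio (-0.35) was -0.32 with at least 500 detected genes, -0.33 with at least 5% and -0.43 with at least 20% globin UMIs. The 34 genes lower in Mg-TAGelMA members became 21 with at least 20% globin UMIs, 52 without mitochondrial genes, Gm42418 and AY036118 in the scale, 59 with TMM and 58 with DESeq2 factors, 9 after thinning and 80 with a 1.5-fold bound. The 368 higher genes became 64 among short-intron genes, 161 after thinning, 226 at 100 CPM and 608 with a 1.5-fold bound. Along the globin share, 110 higher and 87 lower genes became 54 and 5 with members at 75% or more and 7 and 2 after thinning, an alternative added after seeing the data; fewer UMIs enter both. The smaller log2 value of the 2 libraries reversed with members at 75% or more for Isg15 (-0.069), Pim1 (-0.040), Mcm6 (0.34) and Atad5 (0.46), and after thinning for Pim1 (-0.41), Mcm6 (1.59), Mcm7 (1.18), Ccnd3 (0.0066) and Ube2o (-0.99). For Mcm6, Mcm7 and Atad5 (at 75% or more in both libraries) the high set behind the value had 0 UMIs, set to 3, which gives the sign. For the others the cause was not tested. Of values of single genes, 512 between libraries and 235 along the globin share stayed the same, 81 and 13 moved, 29 and 58 lost the call and 4 and 0 gained one. Added after seeing the data, leaving out the deepest Mg-TAGelMA member of each set gave 118 and 65 genes along the globin share and at least 500 detected genes gave 104 and 75. With 65 members and 375789 UMIs outside the globins, the depth of the Mg-TAGelMA library limits every comparison.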
